A study of Mus musculus with 44 samples.

Results

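The genes described here encode the relatives of the gastric proton pump that could, by their family, stand in for its missing beta subunit: the beta subunits of the sodium pump (Na+/K+ATPase), Atp1b1, Atp1b2 and Atp1b3, and Atp12a, the catalytic subunit of the nongastric H+/K+ATPase. These 4 genes were taken by name from the 31414 genes of the count table, to ask whether any of them rose after loss of Atp4b. Of the 4, 3 passed the filter on low counts that 14893 genes passed, and Atp12a did not. In the GRCm38 build of the mouse genome Atp1b1 lies on the minus strand of chromosome 1 (164437109 to 164458355), Atp1b2 on the minus strand of chromosome 11 (69599736 to 69605942), Atp1b3 on the minus strand of chromosome 9 (96332655 to 96364442) and Atp12a on the plus strand of chromosome 14 (56365068 to 56388550).

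The sodium pump and the gastric proton pump are P-type ATPases built alike. A large alpha subunit binds and moves the ions and splits ATP, and a small, heavily glycosylated beta subunit is needed for the alpha subunit to fold, leave the endoplasmic reticulum and reach the membrane. In the parietal cell, the acid-secreting cell of the corpus, Atp4a and Atp4b form the proton pump of the apical canaliculi, while the sodium pump, with Atp1b1 as its main beta subunit, sits in the basolateral membrane and keeps cell sodium low and potassium high. Atp1b2 and Atp1b3 are alternative beta subunits, Atp1b2 being best known from glia and neurons, and Atp12a is known from colon, skin and other surfaces outside the stomach and takes a sodium pump beta subunit as its partner.

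RNA was sequenced from 44 biopsies of the mucosa of the ventral gastric corpus of female BalbC mice aged 13 months. KO mice are homozygous for a disrupted Atp4b, the beta subunit of the H+/K+ATPase, in which exon 1 was the target, so the loss is present in all cells and throughout life. Mice of both genotypes received subcutaneous injections of netazepide (NTZ, formerly YF476, which blocks the gastrin/CCKB receptor) in polyethylene glycol, or polyethylene glycol alone (PEG), which all groups therefore share. The vehicle groups held 11 WT/PEG and 13 KO/PEG libraries and the NTZ groups 9 WT/NTZ and 11 KO/NTZ libraries, with 6065084 to 21945124 estimated counts in each. WT/PEG holds 2 libraries with 1 animal number, another number occurs in both KO groups, and the study's methods give fewer KO/PEG mice than there are KO/PEG libraries, so p-values measure the spread between libraries, part of which may be technical. Animal numbers of 100 or above belong to all 11 WT/PEG libraries but to only 1 of the 11 KO/NTZ libraries; what the numbers stand for is not given.

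Levels below are counts per 1000000 counts (CPM) after scaling by the trimmed mean of M-values (TMM), and adjusted p-values are from the quasi-likelihood test of edgeR, adjusted by Benjamini-Hochberg over all 14893 genes. Atp4b marked the genotypes in every library: it ranged from 2892 to 5738 CPM (median 3858) in WT/PEG and from 2140 to 5078 CPM (median 3696) in WT/NTZ, against 2.28 to 17.04 CPM (median 5.72) in KO/PEG and 4.21 to 40.6 CPM (median 7.63) in KO/NTZ. Most of the transcriptome differed between the vehicle groups, with 74.7% of tested genes called in KO/PEG versus WT/PEG. The summed level of 10 parietal cell markers, Atp4b included, was 12320 to 19040 CPM in WT/PEG and 3997 to 10330 CPM in KO/PEG, and none of them was at 0 in any group. The 2 pump genes made up most of the mean sum, 15740 CPM in WT/PEG and 6589 CPM in KO/PEG. Atp4a held 8089 and 4045 CPM of it, and Atp4b, the disrupted gene, 3924 and 6.84 CPM. Of the 10 markers 9 were called lower and 1 higher, beside 37.2% and 37.5% of all genes. In such bulk biopsies fewer cells of a type and less RNA per cell cannot be told apart.

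The KO libraries also stood apart in the balance of long and short transcripts, which touches the results on Atp1b1. For each library, the slope of log2 CPM (each gene's deviation from its mean over all libraries) on log2 transcript length was computed, so that a positive slope means relatively more counts on long transcripts. The slope was 0.122 to 0.350 (median 0.276) in WT/PEG and 0.0775 to 0.268 (median 0.199) in WT/NTZ, against -0.373 to 0.166 (median -0.147) in KO/PEG and -0.336 to -0.0690 (median -0.242) in KO/NTZ. KO/PEG library 46 alone among the KO libraries lay within the WT range. Genotype and slope can therefore hardly be told apart, and values with the slope as a covariate, an alternative chosen after the data were examined, are given beside the results on the members and the gene lists whose calls it changes. Whether the slope is technical or biological in origin was not tested.

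Compared per kilobase of transcript, the members stood in the order Atp1b1, Atp1b3, Atp1b2, Atp12a, and this order held for the mean of each of the 4 groups. In WT/PEG the mean level was 328.0 CPM per kb for Atp1b1, 49.1 for Atp1b3, 1.94 for Atp1b2 and 0.00638 for Atp12a. Atp1b1 made up 86.5% ± 0.546 (SD, n = 11) of the 3 sodium pump beta transcripts per length in WT/PEG, 85.4% ± 1.86 (n = 9) in WT/NTZ. In KO mice it made up 84.8% ± 2.72 (n = 13) under PEG and 83.0% ± 3.05 (n = 11) under NTZ. The share of Atp1b3 was between 13.0% and 15.5% in the group means. The share of Atp1b2 was 0.514% ± 0.133 in WT/PEG, 0.561% ± 0.137 in WT/NTZ, and in KO mice 0.903% ± 0.255 under PEG and 1.504% ± 0.365 under NTZ. The lowest library of KO/NTZ, at 0.916%, lay above the highest of WT/NTZ, at 0.790%.

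**Figure D1:**
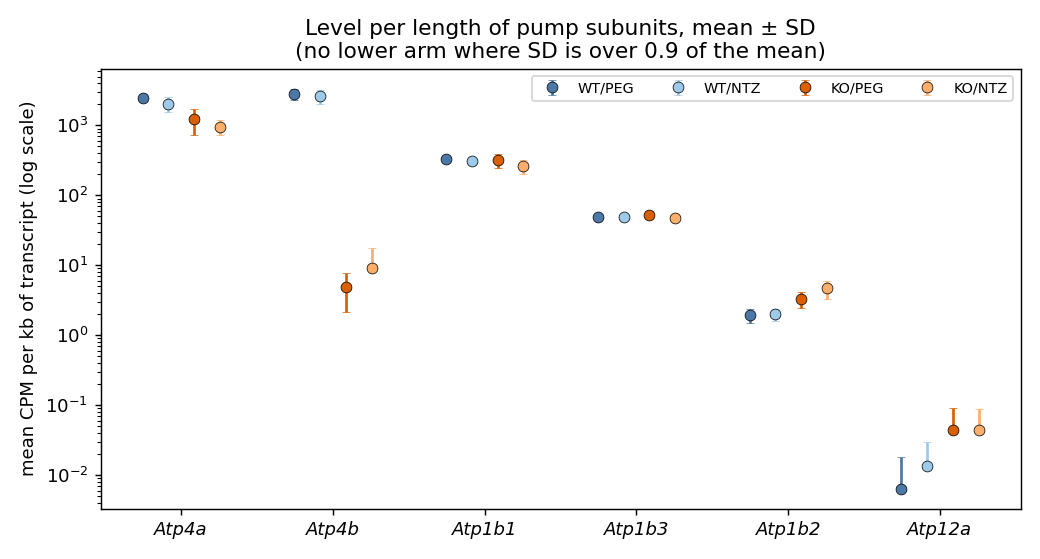
Mean level per kilobase of transcript (CPM per kb, log axis) of the subunits of the gastric proton pump, the beta subunits of the sodium pump and Atp12a in the 4 groups; bars are ± SD over 9 to 13 libraries, with the lower arm left out where the SD exceeds 0.9 of the mean. Atp4b fell from 2848 CPM per kb in WT/PEG to 4.96 in KO/PEG, while Atp1b1 stood at 328.0 and 316.5 and Atp12a stayed lowest in each group.

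Set against what was lost, the differences of the members between group means were small. These differences take no account of the length slope, with which the sign for Atp1b1 changed, as given below. Per kilobase, Atp4b was 2848 CPM in WT/PEG and 4.96 CPM in KO/PEG, a difference of -2843 CPM per kb. The sum of the 3 sodium pump beta subunits was 379.0 ± 22.1 CPM per kb in WT/PEG, 358.8 ± 36.8 in WT/NTZ, and in KO mice 371.7 ± 69.2 under PEG and 313.1 ± 63.6 under NTZ. The difference between KO/PEG and WT/PEG was -11.5 CPM per kb for Atp1b1, 2.80 for Atp1b3, 1.33 for Atp1b2 and 0.0371 for Atp12a. Atp4a, the partner of Atp4b, remained at 1907 to 6977 CPM (median 3637) in KO/PEG against 6204 to 9323 CPM (median 8140) in WT/PEG (log2 fold change -1.0, SE 0.170, adjusted p = 1.86e-06).

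Of the 3 members tested, 1 was called higher and none lower in KO/PEG versus WT/PEG, a comparison in which 37.5% of all genes were called higher and 37.2% lower. The one called was Atp1b2, and 1 called of 3 in either direction stood against 74.7% of all genes.

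**Figure D2:**
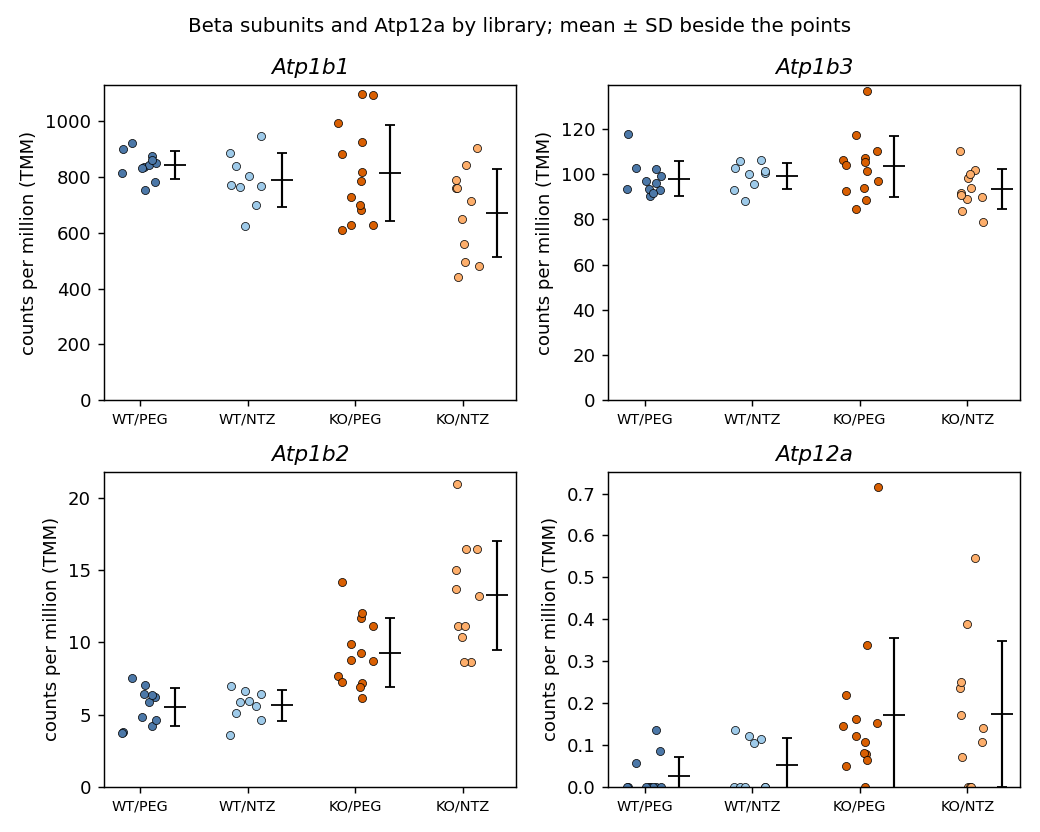
Level of each gene in each library (points, CPM after TMM scaling) by group, with mean ± SD beside the points. Atp1b2 rose in the KO groups, with all 11 KO/NTZ libraries above the highest WT/NTZ library; Atp1b1 and Atp1b3 overlapped between groups, and Atp12a stayed below 1 CPM in every library.

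Atp1b1, the main beta subunit of the epithelial sodium pump, was not called different between genotypes under vehicle, and the ranges overlapped only in part. It ranged from 751.6 to 923.1 CPM (median 843.5) in WT/PEG and from 609.6 to 1097 CPM (median 786.8) in KO/PEG. Of the 13 KO/PEG libraries, 4 lay above the highest WT/PEG library and 6 below the lowest, so the KO group was wider on both sides. The log2 fold change was -0.05 (SE 0.107, 95% interval -0.27 to 0.17, adjusted p = 0.674), which corresponds to 0.831 to 1.12 times the WT level.

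That wide spread followed the transcript length slope. Within KO/PEG, log2 CPM of Atp1b1 and the slope correlated with Pearson's r = 0.931 (permutation p = 1e-05, the smallest that 100000 resamples can give; adjusted over 12 relations, 0.00012) and Spearman's rho = 0.967 (permutation p = 1e-05), and r was 0.919 without the 2 libraries farthest from the median slope. Within KO/NTZ the values were r = 0.840 (permutation p = 0.00197, adjusted 0.00788) and rho = 0.836 (permutation p = 0.00204), with r = 0.835 without those 2 libraries. In WT/NTZ r was 0.743 (exact permutation p = 0.0202, adjusted 0.0606; rho = 0.561, p = 0.122) and fell to 0.308 without 2 libraries, and in WT/PEG r was -0.174 (permutation p = 0.607; rho = -0.0818, p = 0.817). KO/PEG library 46, the one with a slope in the WT range (0.166), held the highest Atp1b1 of all libraries, 1097 CPM.

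With the slope as a covariate the genotype difference of Atp1b1 changed sign and was called: log2 fold change 0.71 (SE 0.129, adjusted p = 4.69e-05 in edgeR) in KO/PEG versus WT/PEG, and 0.79 (SE 0.150, adjusted p = 0.000156) when library 46 was left out as well. Without the covariate, leaving out library 46 gave -0.09 (adjusted p = 0.425). The direction for Atp1b1 thus depends on whether the slope is taken into account, and the part of the slope in the result cannot be separated from genotype in these libraries.

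**Figure D3:**
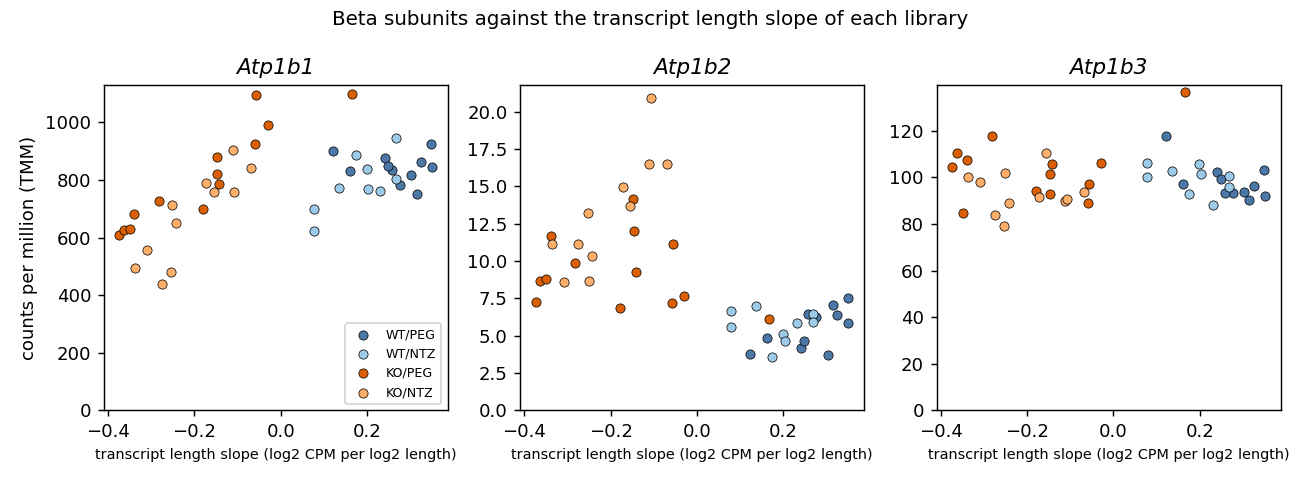
Level of Atp1b1, Atp1b2 and Atp1b3 (CPM after TMM scaling) in each of the 44 libraries against the transcript length slope of that library (log2 CPM per log2 of transcript length), coloured by group. In both KO groups Atp1b1 climbed with the slope, and all KO libraries except KO/PEG 46, at a slope of 0.166, lie to the left of the WT libraries.

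NTZ went with a lower mean of Atp1b1 in KO mice that did not pass the test. In KO/NTZ it ranged from 440.3 to 903.4 CPM (median 713.7), and 4 of 11 libraries lay below the lowest KO/PEG library. The log2 fold change against KO/PEG was -0.27 (SE 0.108, 95% interval -0.49 to -0.06, adjusted p = 0.113), in a comparison in which 5.57% of all genes were called. It passed the threshold with the animal number class as a covariate (-0.36, adjusted p = 0.0422) and with the length slope (-0.22, adjusted p = 0.0412). In WT mice Atp1b1 was 623.1 to 945.0 CPM (median 772.5) under NTZ, a log2 fold change of -0.10 (SE 0.118, adjusted p = 0.947) against WT/PEG. Between KO/NTZ and WT/NTZ the log2 fold change was -0.23 (SE 0.118, adjusted p = 0.0746), and with the slope it was 0.45 (SE 0.123, adjusted p = 0.00739).

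Nearly all Atp1b1 counts belonged to the full-length coding transcript ENSMUST00000027863, and a short transcript of the gene was lower in KO mice, a difference that was lost with the length slope as a covariate. ENSMUST00000193980 is 453 bases long and annotated as a processed transcript without a coding sequence; its first exon of 114 bases lies in intron 2 of the full-length transcript, and its other 339 bases are shared with exons 3 and 4. The first exon, at chr1:164443606-164443719 on the minus strand of GRCm38, is shown because the counts of this transcript rest on it and on its junction. It is in lower case, followed in capitals by the first 15 bases of the shared exon, and below it stands the junction of the full-length transcript into the same exon.
ENSMUST00000193980: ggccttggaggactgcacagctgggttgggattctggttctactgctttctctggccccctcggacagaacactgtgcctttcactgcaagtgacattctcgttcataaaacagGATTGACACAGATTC
ENSMUST00000027863: gagtggccccgccagGATTGACACAGATTC

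The short transcript was estimated at 0 to 30.9 CPM (median 12.3) in WT/PEG, at 0 in 1 of the 11 libraries, and at 0 to 15.6 CPM (median 4.23) in WT/NTZ. In KO/PEG it was at 0 to 2.72 CPM, with 7 of 13 libraries at 0 after rounding to whole counts, and in KO/NTZ at 0 to 0.555 CPM, with 6 of 11 at 0. The genotypes overlapped: the highest KO library, KO/PEG 46, lay below 10 of the 11 WT/PEG libraries but above the other one and above 4 of the 9 WT/NTZ libraries. Fitted over 30318 transcripts, the log2 fold change was -4.38 (SE 0.872, adjusted p = 5e-05 in edgeR) in KO/PEG versus WT/PEG and -4.78 (SE 1.0, adjusted p = 0.000102) in KO/NTZ versus WT/NTZ. Within KO/PEG the transcript went with the length slope. The 7 KO/PEG libraries at 0 had slopes of -0.3733 to -0.1467, and the 6 above 0 had slopes of -0.1472 to 0.1657, so the ranges overlapped slightly. In KO/NTZ these ranges overlapped more widely, at -0.336 to -0.111 for the 6 libraries at 0 and -0.251 to -0.0690 for the 5 above 0. The WT/PEG library at 0 had a slope of 0.241 and the highest one 0.248. For WT/NTZ these slopes were 0.0775 and 0.268. The relation within groups was not tested for this transcript. With the slope as a covariate neither difference was called, at -0.52 (SE 1.58, adjusted p = 0.883) under vehicle and -0.25 (SE 2.17) under NTZ, while leaving out library 46 alone gave -4.80 (adjusted p = 2.02e-05) under vehicle. It made up 1.53% of the pooled Atp1b1 counts in WT/PEG and 0.0953% in KO/PEG, so the gene sum was almost untouched by it. The full-length transcript gave -0.03 (SE 0.107, adjusted p = 0.855) between KO/PEG and WT/PEG and, with the slope, 0.75 (SE 0.126, adjusted p = 5.52e-05). These are kallisto's divided estimates, and reads from unspliced RNA of that intron could be given to the same transcript; their part was not tested. In the annotation a gene on the plus strand overlaps 617 bases of the last exon of the full-length transcript and 0 bases of the short one, and whether strand was used in counting is not given in the sources used here.

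**Figure D4:**
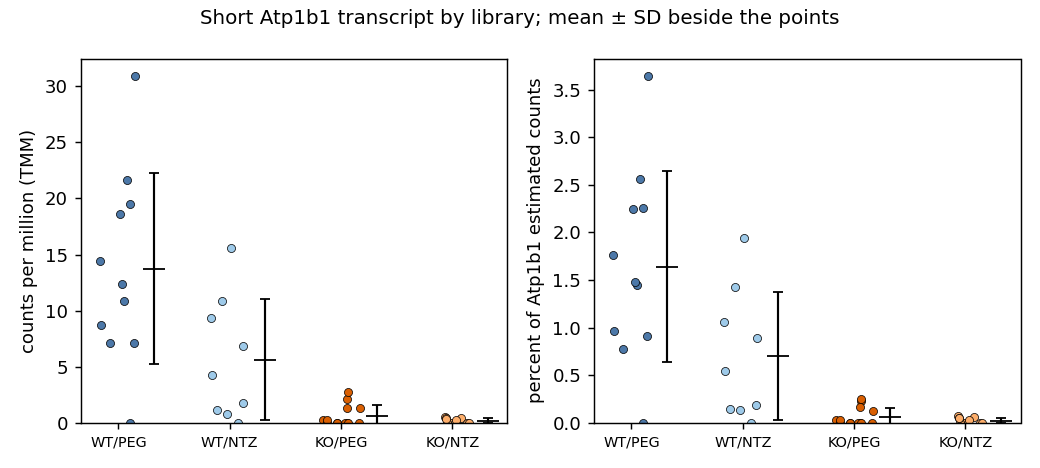
Estimated level of the short Atp1b1 transcript ENSMUST00000193980 in each library, in CPM (left) and as a percentage of all Atp1b1 estimated counts (right), with mean ± SD beside the points. WT/PEG libraries reach 30.9 CPM, while the highest KO library is at 2.72 CPM, above 1 of the 11 WT/PEG and 4 of the 9 WT/NTZ libraries.

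Atp1b3, the beta subunit made in most tissues, was not called in any of the 5 contrasts. It ranged from 90.3 to 117.9 CPM (median 96.2) in WT/PEG, 88.3 to 106.2 CPM (median 100.5) in WT/NTZ, and in KO mice 84.5 to 136.7 CPM (median 104.3) under PEG and 78.96 to 110.4 CPM (median 91.7) under NTZ. The groups overlapped throughout. The log2 fold change was 0.08 (SE 0.0615, 95% interval -0.04 to 0.20, adjusted p = 0.24) in KO/PEG versus WT/PEG, -0.15 (SE 0.0616, adjusted p = 0.135) in KO/NTZ versus KO/PEG and -0.09 (SE 0.0675, adjusted p = 0.245) in KO/NTZ versus WT/NTZ. With library size alone as the scaling, which moved the median of all genes by 0.292 on the log2 scale, Atp1b3 was called higher in KO/PEG (0.38, adjusted p = 0.000198). The highest value, 136.7 CPM, came from KO/PEG library 46, without which the fold change was 0.04 (adjusted p = 0.508).

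Atp1b2, which also serves as an adhesion molecule on glia, was low in this mucosa and rose in KO mice. It ranged from 3.73 to 7.50 CPM (median 5.84) in WT/PEG and from 6.14 to 14.2 CPM (median 8.81) in KO/PEG. All 13 KO/PEG libraries lay above the WT/PEG median and 9 above the highest WT/PEG library, and the lowest was library 46. The fold change was 1.68 (95% interval 1.36 to 2.07), a log2 fold change of 0.75 (SE 0.149, adjusted p = 2.39e-05). Among animals numbered 100 or above it was 5.52 ± 1.33 CPM (n = 11) in WT/PEG and 10.2 ± 2.55 CPM (n = 7) in KO/PEG.

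Under NTZ the genotype difference of Atp1b2 was 2.35-fold (95% interval 1.87 to 2.96), a log2 fold change of 1.23 (SE 0.165, adjusted p = 2.75e-08). WT/NTZ ranged from 3.57 to 6.998 CPM (median 5.85) and KO/NTZ from 8.63 to 20.9 CPM (median 13.2), so that all 11 KO/NTZ libraries lay above all 9 WT/NTZ libraries. In this comparison 72.4% of all genes were called, 35.6% of all genes higher and 36.8% lower. How many of all genes separated as fully is not given here. With the length slope as a covariate both genotype differences stayed called, at 1.05 (SE 0.281, adjusted p = 0.00362) under vehicle and 1.48 (SE 0.250, adjusted p = 2.94e-05) under NTZ. Within groups Atp1b2 related to the slope in KO/NTZ (r = 0.830, permutation p = 0.0019, adjusted 0.00788, and rho = 0.800, permutation p = 0.00436). There r was 0.762 without 2 libraries. In KO/PEG it did not (r = -0.266, permutation p = 0.38, and rho = -0.148, permutation p = 0.629). In WT/PEG r was 0.624 (permutation p = 0.0406, adjusted 0.0812, and rho = 0.573, permutation p = 0.0713), and 0.494 without 2 libraries. In WT/NTZ r was -0.0843 (exact permutation p = 0.838).

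NTZ was accompanied by a further rise of Atp1b2 in KO mice, and of the 3 members tested it was the only one called in that comparison (2.97% of all genes were called higher and 2.6% lower). KO/NTZ against KO/PEG gave 1.43-fold (95% interval 1.17 to 1.75), a log2 fold change of 0.52 (SE 0.144, adjusted p = 0.0241), with 4 of 11 KO/NTZ libraries above the highest KO/PEG library and the rest overlapping. The call was lost when only the 2 groups were fitted (0.52, adjusted p = 0.0776), with library size alone (0.46, adjusted p = 0.0939) and among animals numbered below 100 (0.72, SE 0.189, adjusted p = 0.0552), where the means were 8.24 ± 1.85 CPM (n = 6) in KO/PEG and 13.5 ± 3.85 CPM (n = 10) in KO/NTZ. In WT mice the log2 fold change with NTZ was 0.03 (SE 0.164, adjusted p = 0.984). The NTZ effect in KO exceeded that in WT by 0.49 (SE 0.219, adjusted p = 0.359), which does not pass the threshold, and 0.953% of all genes were called in that test.

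Other cell types moved with Atp1b2 in part. Nerve and glia markers (9 genes) summed to 39.5 to 49.8 CPM in WT/PEG, 34.3 to 50.7 CPM in WT/NTZ, and in KO mice to 15.9 to 33.8 CPM under PEG and 20.2 to 45.8 CPM under NTZ. Of the 9, 8 were called lower in KO/PEG versus WT/PEG, while Atp1b2 rose, and 4 were called higher in KO/NTZ versus KO/PEG, as Atp1b2 was. Beside these counts and those of smooth muscle below, 37.2% of all genes were lower in the first comparison and 2.97% higher in the second. Smooth muscle markers (6 genes) summed to 2522 to 4320 CPM in WT/PEG, 1093 to 3515 CPM in KO/PEG and 2155 to 4777 CPM in KO/NTZ, with 5 lower in KO/PEG versus WT/PEG and 3 higher in KO/NTZ versus KO/PEG. Markers of mucous neck cells and of spasmolytic polypeptide-expressing metaplasia (6 genes) summed to 1810 to 2711 CPM in WT/PEG, 5165 to 57560 CPM in KO/PEG and 16780 to 58190 CPM in KO/NTZ, and B and plasma cell markers (5 genes) to 50.8 to 207.5, 979.0 to 5634 and 625.4 to 2782 CPM. All 6 neck and metaplasia markers and all 5 B and plasma cell markers were called higher in KO/PEG versus WT/PEG, beside 37.5% of all genes. In KO/NTZ versus KO/PEG 0 of either list were called, beside 5.57% of all genes. None of these 4 marker lists had a gene at 0 in a whole group, and their part in the result for Atp1b2 was not tested.

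Atp12a was at the limit of detection in every group, and under vehicle its counts were higher in KO than in WT mice. Its counts per library ran from 0 to 1 (median 0) in WT/PEG, from 0 to 2 (median 0) in WT/NTZ, and in KO mice from 0 to 19 (median 2) under PEG and from 0 to 7 (median 2) under NTZ. It was at 0 in 8 of 11 WT/PEG and 5 of 9 WT/NTZ libraries, but in only 1 of 13 KO/PEG and 3 of 11 KO/NTZ libraries. In CPM the highest values were 0.136 in both WT groups, 0.715 in KO/PEG and 0.546 in KO/NTZ, while the 3 counts that a count of 0 still allows correspond to 0.137 to 0.501 CPM, depending on the library.

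Pooled over libraries, Atp12a had 3 counts in WT/PEG (0.0215 CPM of the summed library totals, exact Poisson 95% interval 0.00444 to 0.0629) and 40 in KO/PEG (0.219 CPM, 0.156 to 0.298). The ratio of these rates was 10.2, with an interval of 3.24 to 51.4 that covers counting error only. Library 32 held 19 of the 40 counts, and without it the ratio was 6.07 (1.81 to 31.8). On CPM the mean was 0.172 ± 0.184 in KO/PEG and 0.0252 ± 0.0468 in WT/PEG, a difference of 0.147 CPM (two-sided permutation test, 100000 resamples, p = 0.00203, 0.00812 after adjustment over the 4 comparisons), and without library 32 the difference was 0.101 CPM (permutation p = 0.00172). Under NTZ, KO mice had 28 counts and WT mice 6, a ratio of 3.57 (1.45 to 10.5), and the difference in mean CPM was 0.121 (two-sided exact permutation p = 0.0580, adjusted 0.116). KO/NTZ and KO/PEG had means of 0.174 and 0.172 CPM (permutation p = 0.980).

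At its highest mean, 0.0440 CPM per kb in KO/NTZ, Atp12a was far below Atp4a in the same libraries (960.7 CPM per kb). In the annotation Atp12a, too, overlaps a gene on the other strand. Atp1b4, the fourth gene of the beta family, had 0 counts in WT/PEG, which allows up to 3 counts of 139500962, and 1, 2 and 1 counts in the WT/NTZ, KO/PEG and KO/NTZ libraries.

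**Figure D5:**
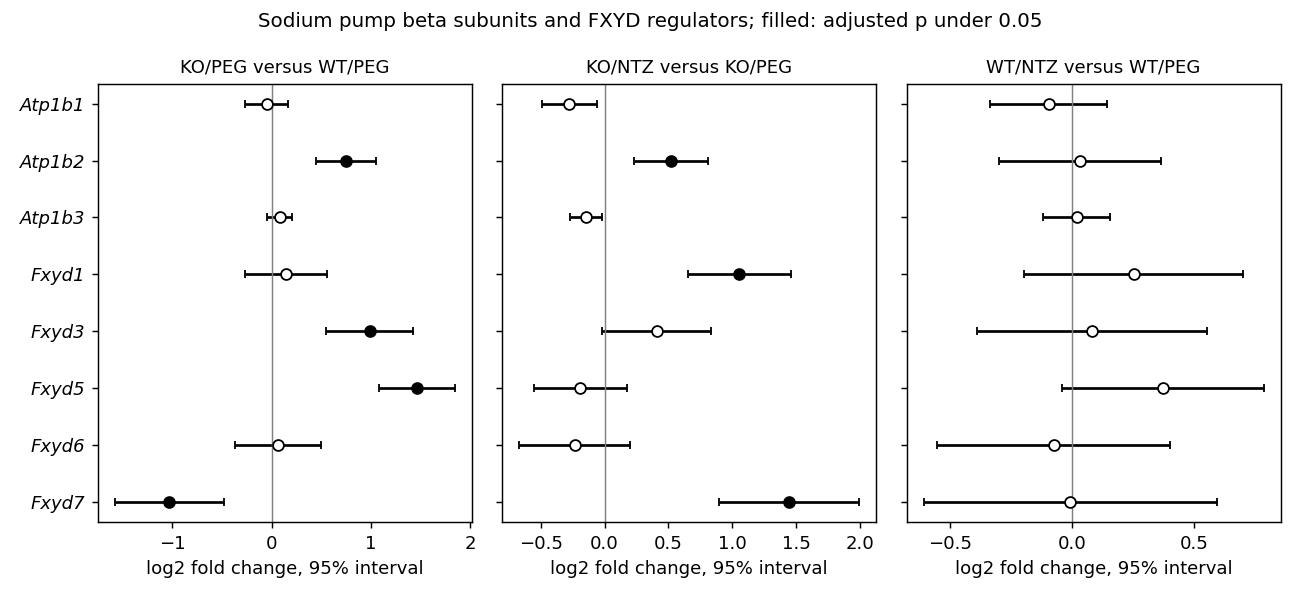
Log2 fold changes with 95% intervals of the sodium pump beta subunits and the FXYD regulators in 3 comparisons; filled points have an adjusted p under 0.05 in edgeR's quasi-likelihood test. Atp1b2 is the only beta subunit with a filled point, at 0.75 in KO/PEG versus WT/PEG and 0.52 in KO/NTZ versus KO/PEG, and no point is filled for NTZ in WT mice.

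Of the FXYD genes, which encode small proteins that sit beside the pump and tune its affinity and rate, 5 of 7 were tested. In KO/PEG versus WT/PEG 2 were higher and 1 lower (median log2 fold change 0.14, median of all genes -0.00285), beside 37.5% of all genes higher and 37.2% lower. Fxyd5 ranged from 5.08 to 10.3 CPM (median 6.61) in WT/PEG and from 12.3 to 37.6 CPM (median 18.9) in KO/PEG, a 2.75-fold rise (95% interval 2.11 to 3.57, adjusted p = 9.86e-09). Fxyd3, the form of stomach and colon epithelium, ranged from 445.7 to 758.8 CPM (median 547.4) in WT/PEG and from 404.0 to 2087 CPM (median 838.0) in KO/PEG, 1.98-fold (adjusted p = 9.92e-05). Neither rise held with the length slope as a covariate, where Fxyd5 was 0.42 (adjusted p = 0.213) and Fxyd3 turned to -0.998 (adjusted p = 0.000444). The list then had 0 higher and 3 lower. With the slope, 2432 of all 14893 genes were called higher and 2452 lower in KO/PEG versus WT/PEG, the background for the lists below as well.

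Fxyd7, the brain form, fell in KO/PEG from 1.23 ± 0.422 to 0.605 ± 0.287 CPM (log2 fold change -1.03, SE 0.275, adjusted p = 0.000955) and stood at 1.63 ± 0.785 CPM in KO/NTZ (1.44 against KO/PEG, SE 0.271, adjusted p = 0.00066). Fxyd1, phospholemman of heart and muscle, ranged from 6.28 to 23.1 CPM (median 12.6) in KO/PEG and from 12.2 to 40.0 CPM (median 25.3) in KO/NTZ, a 2.08-fold rise (95% interval 1.57 to 2.75, adjusted p = 0.000757). These 2 were the FXYD genes called in KO/NTZ versus KO/PEG. Fxyd6 gave 0.06 (SE 0.215, adjusted p = 0.796) in KO/PEG versus WT/PEG, and Fxyd2 and Fxyd4 did not pass the filter, with group means of at most 0.447 CPM.

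Of the 7 genes in the list of those that set the number of sodium pumps and channels at the membrane or their response to steroids, 1 was higher and 4 lower in KO/PEG versus WT/PEG (median log2 fold change -0.72). Over all genes, 37.5% were called higher and 37.2% lower. Sgk1, a kinase induced by aldosterone and glucocorticoids that keeps sodium channels and pumps at the surface, ranged from 167.9 to 323.1 CPM (median 273.5) in WT/PEG and from 8.997 to 60.5 CPM (median 30.5) in KO/PEG (log2 fold change -3.00, SE 0.262, adjusted p = 6.27e-13). The steroid receptors fell as well, Nr3c1 (glucocorticoid receptor) by 1.38 and Nr3c2 (mineralocorticoid receptor) by 1.17 on the log2 scale. Hsd11b2, which inactivates glucocorticoid and so leaves the mineralocorticoid receptor to aldosterone, rose 4.3-fold, from 1.195 ± 0.445 to 5.11 ± 3.12 CPM (adjusted p = 1.87e-07). With the slope as a covariate Sgk1 stayed called (-1.58, adjusted p = 0.00208), while Nr3c1 (-0.06, adjusted p = 0.838), Nr3c2 (0.02, adjusted p = 0.964) and Hsd11b2 (0.11, adjusted p = 0.872) did not, and the list had 1 higher and 1 lower.

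Of 8 genes that bring sodium into the cell, and so load the pump, 4 were higher and 4 lower in KO/PEG versus WT/PEG. The shares of all genes were 37.5% higher and 37.2% lower. Scnn1b, the beta subunit of the epithelial sodium channel, ranged from 0.699 to 2.85 CPM (median 1.79) in WT/PEG and from 5.02 to 28.5 CPM (median 9.66) in KO/PEG, 6.50-fold (adjusted p = 2.73e-11), and Slc5a1, the sodium-glucose transporter of the intestine, was 5.61-fold higher (adjusted p = 3.09e-11). Scnn1a, the alpha subunit of the same channel, went the other way, from 77.3 to 105.1 CPM (median 91.2) down to 39.1 to 70.0 CPM (median 46.9; adjusted p = 3.73e-10). These 3 kept direction and call with the slope, and the list then had 5 higher and 2 lower. Scnn1a stood at 57.0 to 96.8 CPM (median 67.7) in KO/NTZ, 1.44-fold above KO/PEG (adjusted p = 0.000442).

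The 7 tested genes of potassium recycling, which return to the canaliculus the potassium that the proton pump takes up and to the outside what the sodium pump brings in, comprised 1 higher and 4 lower in KO/PEG versus WT/PEG (median log2 fold change -0.58). Among all genes 37.5% were called higher and 37.2% lower. Kcnj16 fell from 285.8 to 560.0 CPM (median 425.5) in WT/PEG to 14.0 to 54.2 CPM (median 31.6) in KO/PEG (log2 fold change -3.68, SE 0.196, adjusted p = 2.04e-19). Kcnj15, a potassium channel of the parietal cell, fell by 1.77 and Kcne2, the accessory subunit of the apical channel, by 1.24 on the log2 scale. Kcne3, the accessory subunit of the intestinal basolateral channel, rose from 0.534 to 1.72 CPM (median 1.06) to 2.95 to 28.1 CPM (median 9.36), 10.1-fold (95% interval 6.05 to 17, adjusted p = 2.63e-10). With the slope Kcnj16 (-3.12) and Kcne3 (3.31) stayed called, Kcnj15 (-0.54, adjusted p = 0.115) and Kcne2 (-0.69, adjusted p = 0.116) did not, and the list had 1 higher and 1 lower.

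The vacuolar proton pump, a rotary ATPase unrelated in structure to the P-type pumps, acidifies organelles and, in some cells, secretes acid across the plasma membrane. Of its 22 tested genes 12 were higher and 4 lower in KO/PEG versus WT/PEG (median log2 fold change 0.39). Over all genes, 37.5% were called higher and 37.2% lower. Atp6v0d2, an isoform known from osteoclasts and kidney, ranged from 0.399 to 1.56 CPM (median 0.679) in WT/PEG and from 6.46 to 52.2 CPM (median 21.97) in KO/PEG, a 28.0-fold rise (95% interval 17.9 to 43.9, adjusted p = 3.38e-16), and Atp6v0a4, the isoform of acid-secreting kidney cells, rose 6.65-fold (95% interval 4.66 to 9.49, adjusted p = 3.51e-12). Atp6v1a, the catalytic subunit, fell to 0.502 times the WT level (adjusted p = 8.85e-12), and Atp6v1b2 rose 1.48-fold (adjusted p = 2.65e-09). With the slope as a covariate the list had 2 higher and 10 lower, beside 2432 higher and 2452 lower of all 14893 genes. Atp6v0d2 (4.98) and Atp6v0a4 (2.31) stayed called, while Atp6v1a (-0.31, adjusted p = 0.0569) and Atp6v1b2 (0.14, adjusted p = 0.285) did not. Of the NKAIN genes, which encode membrane proteins that bind the sodium pump beta subunit, 1 of 4 was tested, and Nkain4 fell by 0.77 on the log2 scale (SE 0.223, adjusted p = 0.00208, and 0.0504 with library size alone).

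With NTZ in WT mice 1.03% of all genes were called, 1.02% higher and 0.00671% lower. Of the 3 tested members 0 were called in WT/NTZ versus WT/PEG by edgeR, 0 had an unadjusted p under 0.05, and 0 were called by DESeq2 or limma. Of the 27 tested FXYD, control, sodium entry and potassium genes 0 were called by any of these tools, and 2 (Scnn1b and Slc5a1) had an unadjusted p under 0.05. Of the vacuolar pump genes 1 was called, Atp6v1c2, which lies outside the rule for named genes and was chosen after its values were seen (5.94-fold higher, 95% interval 2.42 to 14.6, adjusted p = 0.0335). It was at 0 to 0.422 CPM (median 0.178) in WT/PEG and 0 to 3.53 CPM (median 1.03) in WT/NTZ. The call was lost with the length slope (2.07 on the log2 scale, adjusted p = 0.186) and with limma (1.34, adjusted p = 0.374), and the fit of these groups alone called 0 genes. Squamous epithelium markers (6 genes) summed to 0.446 to 323.3 CPM (median 1.37) in WT/PEG and 0.650 to 2054 CPM (median 416.5) in WT/NTZ, and skeletal muscle markers (6 genes) to 7.07 to 17.1 CPM (median 12.9) and 11.3 to 185.0 CPM (median 16.5). None of these markers was at 0 in either whole group, and their part in the result was not tested.

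In KO/NTZ versus KO/PEG 2.97% of all genes were called higher and 2.6% lower. The 2 FXYD genes given above were higher, and with the slope 3 were. Of the control genes 1 was lower, Sgk1, which fell by 0.82 on the log2 scale (adjusted p = 0.0471). This call was lost without KO/PEG library 46 (-0.75, adjusted p = 0.0784), with library size alone (adjusted p = 0.0552) and when only these groups were fitted (adjusted p = 0.183). The sodium entry genes had Scnn1a higher and 1 lower, Slc12a2, a cotransporter of sodium, potassium and chloride. Slc12a2 fell by 0.59 (adjusted p = 0.0455), and its call was lost without library 46 (-0.47, adjusted p = 0.0987), with library size alone (adjusted p = 0.0511) and when only these groups were fitted (adjusted p = 0.189). The potassium genes had 1 lower, Kcnq1, the apical potassium channel of the parietal cell, which fell by 0.57 (adjusted p = 0.00189). The vacuolar pump genes had 2 higher, Atp6v1c2 (2.33, adjusted p = 0.0129) and Atp6v0e2 (0.46, adjusted p = 0.0263, and 0.0747 with library size alone). The squamous markers summed to 2.21 to 356.7 CPM (median 21.0) in KO/PEG and 20.7 to 432.4 CPM (median 89.1) in KO/NTZ. With the slope as a covariate the sodium entry genes had 1 higher and 2 lower, the potassium genes 2 lower and the vacuolar pump genes 5 higher. Of all 14893 genes, 972 were then called higher and 722 lower. Slc12a2, Kcnq1 and Atp6v0e2 were likewise named after their values were seen.

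As a description over the 44 libraries after removal of group means, with Pearson's r of log2 CPM, the genes most like Atp1b1 were Ahcyl2 (0.926), Galnt4 (0.923), Rnf11 (0.919), Efcab14 (0.915) and Mecom (0.911). The length slope that Atp1b1 followed in the KO groups also varied between libraries within each group. Its part in these correlations was not tested. Atp1b2 had weaker neighbours, Arnt2 (0.570), Sucla2 (0.530), Lhfpl2 (0.524), Csad (0.511) and Arf3 (0.509). With the group means left in, r over the 44 libraries was -0.554 for Arnt2, -0.462 for Sucla2, -0.392 for Lhfpl2, 0.137 for Csad and 0.152 for Arf3, so that the sign turned for the first 3. With the means left in, the 5 neighbours of Atp1b1 had r of 0.697 to 0.929. Atp1b3 also had weaker neighbours, Hsp90aa1 (0.576), Crem (0.574), Yars2 (0.565), Anp32e (0.561) and Pck1 (0.553), whose r with the means left in was 0.270 to 0.593.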

How the data were processed

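RNA from 44 corpus biopsies was prepared with a stranded poly-A kit and sequenced as single reads. The authors deposited estimated counts per transcript; the submitters' processing notes name kallisto 0.42.4, bcl2fastq, sleuth and the GRCm38 build, and the use of strand in counting is not given in the sources used here. The deposited estimated counts were summed per gene name of GENCODE vM21 and rounded to whole numbers. Of 94080 transcripts, 1796 had no gene in the annotation and were left out, with 0.351% to 1.33% of the counts of a library. Library totals ran from 6065084 to 21945124, so 3 counts, the limit that a count of 0 allows, equal 0.137 to 0.501 CPM. Intervals on counts cover counting error only.

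Groups and replicate numbers were taken from the labels. All 44 libraries entered 1 fit per gene (edgeR 4.0.16 in R 4.3.3: filterByExpr with a minimum count of 10 and a minimum total of 15, TMM, quasi-likelihood test, threshold 0.05 on the Benjamini-Hochberg adjusted p over 14893 genes), with 5 contrasts. Log2 CPM for correlations used a prior count of 2. Atp12a, too low for the filter, was compared by permutation of its CPM. Levels per kb used the mean length of a gene's transcripts weighted by their counts. Alternatives included DESeq2 1.42.0, limma 3.58.1, other scalings and filters, and subsets of libraries. The fit was tested on simulated data for KO/PEG versus WT/PEG, with 14756 genes of which 200 were changed: 162 were called, 11 of them falsely, and 97.0% of 4-fold, 76.1% of 2-fold and 53.7% of 1.5-fold changes were recovered. The simulated data had few changed genes and no length slope, while in the real comparison 74.7% of genes were called. These rates therefore may not hold for the real comparison.

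The members and lists were chosen with earlier results of these data known. Named were the members, the gastric pump, Atp1b4 and FXYD genes, up to 4 genes of each other list with the smallest adjusted p in KO/PEG versus WT/PEG, and the 5 genes most correlated with each member. Some genes that this rule names are not reported here and were left out of the lists.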

Additional observations from a re-analysis of the deposited data

Results flagged for a closer look

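In WT/NTZ, the one group of 4 to 10 libraries, the highest or lowest library was compared with its nearest neighbour by Dixon's criterion. This was done for 30 genes, and 4 were marked. The criterion marks about 1 set of values in 20 by chance. All 30 sets came from the same 9 libraries, so the marks are not independent and their number cannot be set against that rate. There, 1 library held the single Atp1b4 count of its group, 0.114 CPM against 0 elsewhere, a pattern that the criterion marks whatever the value. The same library held the highest Atp6v1b2, 84.8 CPM against 76.6 CPM. Another WT/NTZ library stood apart for Fxyd5, at 19.8 CPM against 10.5 CPM, and for Hsd11b2, at 3.59 CPM against 1.60 CPM. None of the 4 members was marked.

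The NTZ effect on Scnn1a, the alpha subunit of the epithelial sodium channel, differed between genotypes: it was 0.646 higher in KO than in WT on the log2 scale (SE 0.143, adjusted p = 0.0166 in edgeR). Scnn1a was 1.44-fold higher in KO/NTZ than in KO/PEG, while WT/NTZ (48.5 to 104.4 CPM) and WT/PEG (77.3 to 105.1 CPM) overlapped.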

How the results depend on the processing

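No paired analysis was possible because the groups share fewer than 2 animal numbers. Over 16 alternatives, the members and the Atp1b1 transcripts gave 231 values. Atp1b2 stayed on the same side of the threshold in 69 values and lost its call in 4, all in KO/NTZ versus KO/PEG: 0.457 with library size only (adjusted p = 0.0939), 0.516 with only the groups compared (0.0776), 0.717 in animals numbered below 100 (0.0552) and 0.516 for its main transcript (0.0795). For Atp1b1, KO/PEG versus WT/PEG gave 0.272 with library size only (adjusted p = 0.0914), 0.71 with the transcript length slope and 0.792 with the slope and without library 46. KO/NTZ versus KO/PEG passed the threshold at -0.356 with the animal number class, -0.217 with the slope and -0.23 with the slope and without library 46. KO/NTZ versus WT/NTZ passed it at -0.238 with DESeq2, -0.26 with limma and -0.293 with the number class, and turned to 0.447 with the slope and 0.504 with the slope and without library 46. In WT/NTZ versus WT/PEG Atp1b1 turned to 0.0467 with the slope and 0.0586 with the slope and without library 46. Atp1b3 in KO/PEG versus WT/PEG was called at 0.383 with library size only and turned to -0.123 with the slope and without library 46; under the same settings it turned to 0.068 in KO/NTZ versus WT/NTZ (library size) and to -0.0103 in WT/NTZ versus WT/PEG (slope, without 46). Library size only moved the median of all genes by 0.292 in KO/PEG versus WT/PEG and raised the share of higher genes among those called from 50.2% to 71.1%; it moved the share from 53.3% to 36.9% in KO/NTZ versus KO/PEG, from 49.2% to 60.7% in KO/NTZ versus WT/NTZ (median shift 0.158) and from 25.4% to 6.67% in the difference of NTZ effects (median shift -0.134). The full-length Atp1b1 transcript turned to 0.746 and 0.458 (KO/PEG versus WT/PEG and KO/NTZ versus WT/NTZ) with the slope, and to 0.854 and 0.537 with the slope and without library 46. The short one lost its calls under both settings and turned to 0.105 in KO/NTZ versus WT/NTZ under the second. For Atp12a, library size only gave -0.0137 CPM in KO/NTZ minus KO/PEG and 0.134 CPM in KO/NTZ minus WT/NTZ, where p passed the threshold (exact permutation p = 0.0477). The cause of these changes was not tested.

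The number of genes called moved by more than 1.5 times as follows. KO/PEG versus WT/PEG fell from 11119 to 4884 with the slope and 4452 with the slope and without library 46. KO/NTZ versus KO/PEG went from 829 to 1249 (DESeq2), 267 (only the groups compared), 1289 (number class), 256 (numbers below 100), 1694 (slope) and 2362 (slope, without 46). WT/NTZ versus WT/PEG went from 153 to 2 (limma), 310 (number class), 484 (numbers of 100 or above), 71 (slope), 23 (slope, without 46), 60 (per transcript, over more features) and, with only the groups compared in edgeR, 0, where 2117 genes had an unadjusted p under 0.05 and DESeq2 on all groups called 174. KO/NTZ versus WT/NTZ went from 10783 to 3141 (slope), 2633 (slope, without 46) and 17213 (per transcript). The difference of NTZ effects went from 142 to 271 (DESeq2), 53 (limma), 1458 (slope) and 1987 (slope, without 46). All 12 shares of the beta subunits moved by less than 1 SD with the longest transcript as the length. At 3 counts or fewer in 11 of 13 KO/PEG libraries, depth limits Atp12a.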
